A study of Mus musculus with 30 samples.

Results

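Entpd3, Fap and Cldn19 were followed across mouse blood samples as 3 genes whose transcripts were much more abundant after irradiation of p38WT mice and which belong to no standard list of radiation-responsive genes. They were chosen from measured values, namely the change after 7 Gy of x-rays in p38WT blood. Each was represented by 1 array probe, and all 3 passed the filter on dim probes that left 18718 genes or unnamed features of 39429 distinct probes. Blood was taken by cardiac puncture from male mice of strain C57BL/6J and measured on 30 one-colour arrays, 5 from each of 6 groups. The groups were p38DKI irradiated with 7 Gy and p38DKI unirradiated, p38DN irradiated with 7 Gy and p38DN unirradiated, and p38WT irradiated with 7 Gy and p38WT unirradiated. DKI and DN are written here as in the labels, which name 2 altered genotypes of p38, a stress-activated protein kinase. Blood was collected 24 h after exposure, and the series describes its 5 samples per group as independent experiments, without tying replicates to litters or giving the age of the mice. The question behind the arrays was how the p38 genotype bears on the blood transcripts that respond to radiation.

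The 3 genes encode unrelated proteins of the cell surface. Entpd3 encodes an ecto-nucleotidase that removes terminal phosphates from extracellular ATP and ADP, and it is best known from sensory neurons and the beta cells of the pancreatic islet. Extracellular ATP acts on P2X channels and on P2Y receptors, and it is broken down step by step to adenosine, which acts on receptors of its own. Fap encodes fibroblast activation protein, a membrane-bound serine protease of the prolyl oligopeptidase family that cleaves after proline and is a marker of activated fibroblasts in wounds, fibrosis and tumour stroma. Cldn19 encodes claudin 19, a tight junction protein that works with claudin 16 in the thick ascending limb of the kidney to let divalent cations pass between cells, and which is also found in the myelin of Schwann cells and in retinal pigment epithelium. None of the 3 is a usual marker of a blood cell type.

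The probes are shown because every value below rests on a single 60-base sequence per gene. They are given 5′ to 3′ with no base singled out, and their positions follow mm9, the mouse build of the scanner files.
Entpd3, chr9:120476757-120476816, plus strand: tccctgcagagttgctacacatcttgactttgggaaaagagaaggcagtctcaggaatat
Fap, chr2:62339001-62339060, minus strand: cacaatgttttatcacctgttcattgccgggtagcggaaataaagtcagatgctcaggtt
Cldn19, chr4:118929768-118929827, plus strand: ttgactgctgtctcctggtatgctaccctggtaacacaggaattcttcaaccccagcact
The share of G and C was 45.0% in the Entpd3 probe and 43.33% in the Fap probe, the Cldn19 probe had as many G and C as A and T bases, and each probe was spotted once per array. No annotation of mm9 was used here, so the exon or untranslated region under each probe is not given.

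Promoter windows were matched by symbol in a RefSeq table of build GRCm38.p6 for 2 of the 3 genes, Entpd3 and Cldn19. They are shown because these genes changed after irradiation, and motif matches are in capitals. The motifs searched on both strands were AP-1 (TGANTCA), the E-box CACGTG, the TATA motif TATAAA, the GC box GGGCGG, the core of the interferon-stimulated response element, the p53 half-site and the NF-kB site.
Entpd3, chr9:120539568-120539867, plus strand: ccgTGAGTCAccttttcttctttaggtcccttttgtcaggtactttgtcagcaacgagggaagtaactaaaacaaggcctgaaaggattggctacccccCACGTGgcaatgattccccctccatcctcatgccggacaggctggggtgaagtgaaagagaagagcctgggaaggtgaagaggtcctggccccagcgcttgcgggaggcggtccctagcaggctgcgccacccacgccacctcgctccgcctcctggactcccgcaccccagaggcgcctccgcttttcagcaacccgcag
Cldn19, chr4:119255191-119255490, plus strand: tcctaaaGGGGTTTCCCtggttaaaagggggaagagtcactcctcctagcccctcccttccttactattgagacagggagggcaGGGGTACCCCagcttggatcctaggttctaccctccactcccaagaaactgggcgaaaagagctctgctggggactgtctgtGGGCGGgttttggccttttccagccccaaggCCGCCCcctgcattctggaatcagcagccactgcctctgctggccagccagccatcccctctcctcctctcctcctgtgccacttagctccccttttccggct
The Entpd3 window held 1 AP-1 match and 1 E-box, motifs present in 7.81% and 7.15% of the 32851 windows of the table. The Cldn19 window held 2 GC boxes and 2 NF-kB matches, and at least 1 GC box was present in 35.7% of windows and at least 1 NF-kB match in 8.46%. Neither window held a p53 half-site (8.36% of windows), an interferon-stimulated response element core (3.44%) or a TATA motif (13.6%). A second Cldn19 window of the table overlaps the one shown. These matches describe letters in the windows and were not tested against the expression values.

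Levels are log2 of the processed intensity from the scanner after division by that array's 75th percentile, an intensity of 43.3 on the dimmest array and 230.39 on the brightest. On single arrays 39.2 to 63.2% of probes were well above background, the scanner software's own mark for a spot brighter than its surroundings. The 3 probes were dim, and unirradiated arrays often did not reach that mark. The filter asked for the mark on at least 4 of 5 arrays of a group. Entpd3 met this only in the irradiated groups, and Fap only in irradiated p38DKI and p38WT. Both thus entered the tests through groups where they were high, whereas Cldn19 also met it in unirradiated p38DKI and p38DN. Where none of the 5 unirradiated arrays reached the mark, the rise is written as a bound, with "at least". For the bound each unirradiated level was raised, where lower, to that of the dimmest well detected probe of its array. Platelet markers stood 4.09 to 7.31 above the 75th percentile on every array, and blood is the labelled tissue. Arrays of p38WT and p38DKI filled slides 1 to 5 of 1 scan day, whereas those of p38DN filled slides 6 to 10, each scanned on a day of its own, so slide, scan day and genotype cannot be told apart where p38DN is set beside the other genotypes. Liver markers averaged over 3 log2 units more than on the typical other array on 7 arrays, p38DKI irradiated 2, p38DKI unirradiated 1, p38DN irradiated 2 and 4, and p38DN unirradiated 2, 4 and 5. Without these 7 arrays the changes were 3.25, 3.31 and 2.47 (log2, 7 Gy minus unirradiated) for Entpd3, Fap and Cldn19 in p38DKI and 3.14, 2.21 and 1.40 in p38DN, and no call of the 3 genes changed. The mean of the heart muscle markers was likewise raised on 3 arrays, p38DN irradiated 3, p38WT irradiated 2 and p38WT unirradiated 1. Without the 3 heart-high arrays the p38DN changes were 3.43, 2.27 and 1.06. The median log2 change of all genes after 7 Gy was -0.25 in p38DKI, 0.01 in p38DN and -0.03 in p38WT. Centring on the array median instead moved it to 0.17 in p38DKI. Relative to the median gene, Entpd3, Fap and Cldn19 changed by 3.24, 3.54 and 2.14 (log2) in p38DKI and by 3.06, 2.13 and 1.02 in p38DN.

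**Figure D1:**
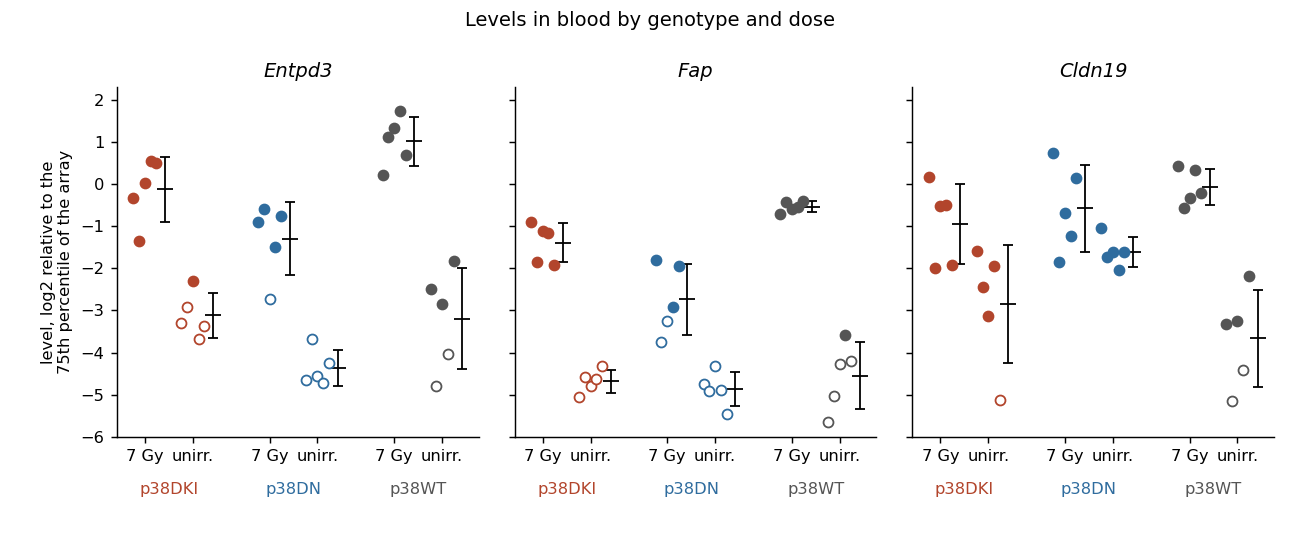
Level of each gene on every array, as log2 relative to the 75th percentile of the array, by genotype with irradiated (7 Gy) left of unirradiated (unirr.) arrays. Filled points were well above background, open points were not, and the bars give the mean and SD of 5 arrays. In p38DKI and p38DN the irradiated and unirradiated points are apart for Entpd3 and Fap and overlap for Cldn19.

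Entpd3 was higher after irradiation in both genotypes that played no part in its choice. In p38DKI blood the 5 irradiated arrays had levels of -0.34, -1.35, 0.03, 0.54 and 0.50, against -3.30, -2.92, -2.31, -3.68 and -3.37 on the unirradiated arrays. The lowest irradiated array stood 0.95 above the highest unirradiated one. Levels averaged -0.12 ± 0.777 in irradiated and -3.11 ± 0.528 in unirradiated p38DKI blood (SD, n = 5 each). All 5 irradiated arrays and 1 of the 5 unirradiated arrays were well above background. Entpd3 rose by 2.99 on the log2 scale (SE 0.470), which is 7.95-fold with a 95% interval of 4.08 to 15.5 (limma, adjusted p = 3.56e-05 over all genes). With unirradiated levels raised as for a bound, the rise was 7.14-fold. In this genotype 12.1% of all genes were called higher and 19.3% lower, and 7.23% had every irradiated array above every unirradiated one.

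In p38DN blood, Entpd3 levels were -0.91, -0.58, -2.72, -1.50 and -0.76 on irradiated arrays, against -4.65, -3.68, -4.55, -4.72 and -4.24 on unirradiated arrays. The groups did not overlap, and irradiated array 3 was the lowest of its group and the only one not well above background. Levels averaged -1.29 ± 0.869 in irradiated and -4.37 ± 0.424 in unirradiated p38DN blood (SD, n = 5 each). Since no unirradiated array was well above background, the rise is given as at least 3.40-fold (fitted log2 change 3.07, SE 0.470, limma adjusted p = 2.46e-05). In p38DN 17.6% of all genes were called higher and 10.3% lower, and 12.4% had every irradiated array above every unirradiated one. In p38DKI, where the rise is not a bound, it ranked 147th among all genes.

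The p38WT values that chose Entpd3 are given as a description. Levels were 0.23, 1.11, 1.34, 1.74 and 0.69 on irradiated arrays, against -2.49, -4.80, -2.84, -4.03 and -1.83 on unirradiated arrays, of which 3 were well above background. The means were 1.02 ± 0.584 and -3.20 ± 1.20 (SD, n = 5 each), a difference of 4.22 (log2) or 18.6-fold, and 14.4-fold with unirradiated levels raised as for a bound. In p38WT 15.0% of all genes were called higher and 12.1% lower, and 12.9% had every irradiated array above every unirradiated one, as the 3 chosen genes did.

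Neutrophil markers rose together with Entpd3 in p38DKI. Of the 18 listed, 17 were measured, and in p38DKI 11 rose and 1 fell after irradiation. Their mean level lay between 2.01 and 3.45 on irradiated and between 1.33 and 2.08 on unirradiated arrays. In p38DN 2 rose and 2 fell, with overlapping mean levels of 1.53 to 2.72 on irradiated and 1.62 to 2.25 on unirradiated arrays. Over all genes 12.1% rose and 19.3% fell in p38DKI and 17.6% rose and 10.3% fell in p38DN. These counts and those of the marker lists below are to be read against those shares. With the mean of the neutrophil markers as a covariate, an alternative chosen after seeing the data, the change of Entpd3 was 1.46 in p38DKI (log2, limma adjusted p = 0.00409) and 2.48 in p38DN (adjusted p = 1.58e-06). In whole blood, a change in the number of cells of a type and a change in RNA per cell cannot be told apart.

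Fap rose in both p38DKI and p38DN blood, where no unirradiated array was well above background. In p38DKI its levels were -0.90, -1.84, -1.12, -1.15 and -1.92 on irradiated arrays, against -5.05, -4.59, -4.80, -4.63 and -4.32 on unirradiated arrays. The gap between the groups was 2.40 (log2), and all 5 irradiated arrays but none of the unirradiated arrays were well above background. The means were -1.39 ± 0.464 in irradiated and -4.68 ± 0.270 in unirradiated p38DKI blood (SD, n = 5 each), and the rise was at least 3.73-fold (fitted log2 change 3.29, SE 0.341, limma adjusted p = 1e-07).

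In p38DN, Fap levels were -1.79, -3.75, -3.24, -2.91 and -1.94 on irradiated arrays, against -4.75, -4.92, -4.33, -4.89 and -5.46 on unirradiated arrays. Every irradiated array was above every unirradiated one, although irradiated arrays 2 and 3 were not well above background. The means were -2.73 ± 0.843 in irradiated and -4.87 ± 0.406 in unirradiated p38DN blood (SD, n = 5 each). The bound on the rise is at least 1.26-fold, with a fitted log2 change of 2.14 (SE 0.341, limma adjusted p = 3.9e-05).

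In p38WT, where Fap was chosen, levels were -0.71, -0.42, -0.60, -0.54 and -0.39 on irradiated arrays, against -5.66, -5.03, -4.26, -3.58 and -4.21 on unirradiated arrays. The irradiated arrays lay within a narrow band, with an SD of 0.129 around -0.53, whereas the unirradiated arrays had a mean of -4.55 ± 0.805 (n = 5 each) with 1 of 5 well above background. The difference was 4.02 (log2) or 16.2-fold, and 7.60-fold with unirradiated levels raised as for a bound.

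Markers of fibroblasts and other stroma, the cells for which Fap is known, were raised on irradiated arrays as well. Of 18 listed, 10 were measured, and 7 rose and 1 fell in p38DKI. Among the 7 were the collagens Col1a2 (3.38, log2, limma adjusted p = 0.000675) and Col3a1 (3.78, adjusted p = 0.00109), named after their values were seen. The other 8 of the 18 listed, Col5a1, Col6a3, Lum, Pdgfra, Pdgfrb, Postn, Fbn1 and Dpt, did not pass the filter on dim probes. The mean stroma level was 1.35 to 3.57 on irradiated and -0.89 to 1.20 on unirradiated p38DKI arrays, and 0.60 to 2.20 on irradiated and -0.68 to 0.03 on unirradiated p38DN arrays, where 6 markers rose and none fell. In p38WT it was -0.14 to 2.48 on irradiated and -0.62 to 1.81 on unirradiated arrays. There 2 stroma markers rose and none fell, against 15.0% and 12.1% of all genes. Markers of mesothelium, the lining of body cavities, rose for 8 of 9 measured in p38DKI and 3 of 9 in p38DN. With the mean of the stroma markers as a covariate, the change of Fap was 2.79 (log2, limma adjusted p = 0.000329) in p38DKI and 1.79 (adjusted p = 0.00316) in p38DN.

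Cldn19 rose in p38DKI, with overlapping groups, and did not pass the test in p38DN. In p38DKI its levels were 0.17, -1.98, -0.52, -0.49 and -1.92 on irradiated arrays, against -1.58, -2.44, -3.14, -1.94 and -5.12 on unirradiated arrays. Irradiated arrays 2 and 5 lay below the highest unirradiated array, and unirradiated array 5 was far below its group and the only one of the 10 not well above background. The means were -0.95 ± 0.956 in irradiated and -2.84 ± 1.40 in unirradiated p38DKI blood (SD, n = 5 each), a rise of 1.89 (log2, SE 0.582) or 3.72-fold (95% interval 1.63 to 8.50, limma adjusted p = 0.015). The rise ranked 573rd among all genes, and it was 2.77-fold with unirradiated levels raised as for a bound. Without unirradiated array 5 the change was 1.32 (log2) with a limma adjusted p of 0.0657, so the call rests on that array. A fit of the p38DKI arrays alone left the change at 1.89 with an adjusted p of 0.061, and the call was also lost with the mean of stroma markers (1.07, adjusted p = 0.4) or of neutrophil markers (1.14, adjusted p = 0.209) as a covariate.

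In p38DN, Cldn19 levels were 0.73, -1.85, -0.68, -1.24 and 0.16 on irradiated arrays, against -1.04, -1.72, -1.62, -2.04 and -1.61 on unirradiated arrays. All 10 were well above background, and irradiated array 2 lay below 4 of the 5 unirradiated arrays. The means were -0.57 ± 1.04 in irradiated and -1.61 ± 0.361 in unirradiated p38DN blood (SD, n = 5 each). The difference of 1.03 (log2, 95% interval -0.16 to 2.23) was 2.05-fold and did not pass the threshold (limma adjusted p = 0.191).

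In p38WT, where Cldn19 was chosen, levels were 0.42, -0.56, -0.33, 0.33 and -0.21 on irradiated arrays, against -3.32, -5.16, -3.24, -4.41 and -2.17 on unirradiated arrays, 3 of them well above background. The means were -0.07 ± 0.427 and -3.66 ± 1.15 (SD, n = 5 each), a difference of 3.59 (log2) or 12.1-fold, and 8.44-fold with unirradiated levels raised as for a bound.

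Tissues for which Cldn19 is known gave no common direction. Of 10 kidney tubule markers 6 were measured, of which 1 rose and 1 fell in p38DKI and 2 fell in p38DN. The p38DKI counts are near the shares of all genes, 12.1% higher and 19.3% lower, and in p38DN these shares were 17.6% and 10.3%. Umod, Slc12a1, Cdh16 and Cldn16, the gene of the kidney partner of claudin 19, did not pass the filter on dim probes. Of 10 Schwann cell and nerve markers 9 were measured, and 1 rose and 3 fell in p38DKI whereas 5 rose and 1 fell in p38DN. Of 16 platelet markers, 7 rose in p38DKI and all 16 rose in p38DN. A fit with their mean as a covariate is given below, and whether platelets cause the Cldn19 change was not tested. Their mean level was 4.34 to 6.78 on irradiated and 4.58 to 5.24 on unirradiated p38DKI arrays, and 5.93 to 7.31 on irradiated and 4.09 to 4.97 on unirradiated p38DN arrays. With that mean as a covariate, an alternative chosen after seeing the data, the change of Cldn19 was 0.96 in p38DKI (log2, adjusted p = 0.165) and -1.09 in p38DN (adjusted p = 0.335). The same covariate left Fap at 2.93 (adjusted p = 1.66e-06) and Entpd3 at 2.50 (adjusted p = 0.000572) in p38DKI, and ended their calls in p38DN, at 1.33 (adjusted p = 0.0692) for Fap and 1.97 (adjusted p = 0.0537) for Entpd3.

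**Figure D2:**
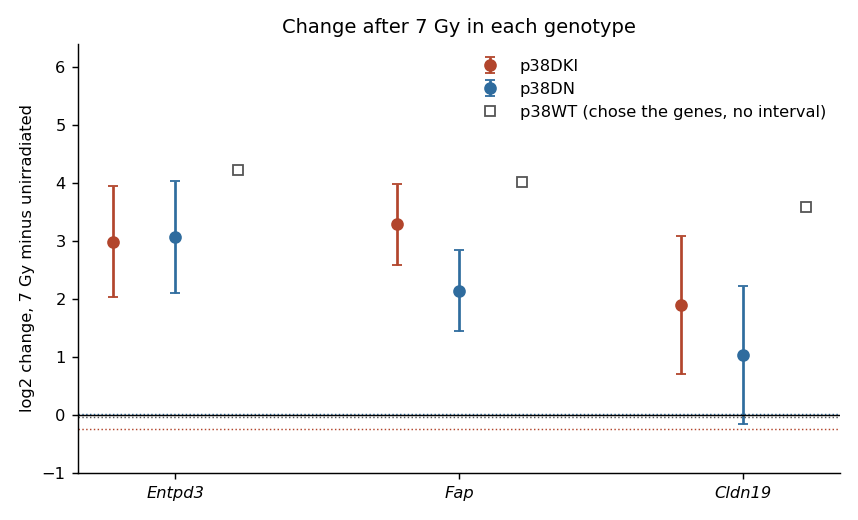
Log2 change after 7 Gy in p38DKI, p38DN and p38WT blood (y axis) for each gene (x axis). Bars are 95% intervals from the limma fit, dotted lines give the median change of all genes in each genotype, and the open squares of p38WT are the values that chose the genes and carry no interval. The p38DKI and p38DN intervals lie above 0 except that of Cldn19 in p38DN, which reaches from -0.16 to 2.23.

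Whether the rise differed between the altered genotypes was tested with a contrast that holds no p38WT mean. The p38WT arrays were still in the fit and enter its shared estimate of spread. The p38DKI change minus the p38DN change was -0.08 (log2, 95% interval -1.45 to 1.28, limma adjusted p = 0.949) for Entpd3, 1.15 (0.16 to 2.14, adjusted p = 0.167) for Fap and 0.86 (-0.83 to 2.55, adjusted p = 0.529) for Cldn19. None passed the threshold, and the intervals leave room for differences of over 1 log2 unit in each gene. For Entpd3 and Fap these differences rest on unirradiated values mostly below the mark. Of 5 unirradiated arrays, 1 in p38DKI and 0 in p38DN were well above background for Entpd3, and 0 in both for Fap. Over all genes 0.208% were called higher and 0.721% lower in this comparison. For Entpd3 the sign turned under other scalings, with 0.32 after centring on the array median.

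Slides gave a closer comparison in p38DN, where the irradiated and the unirradiated array of a replicate number shared a slide. The Entpd3 difference within slides 6 to 10 was 3.10, 1.83, 3.74, 3.48 and 3.22 (log2), and that of Fap 1.17, 1.08, 2.96, 3.52 and 1.97, so both were higher after irradiation on 5 of 5 slides. The share of all genes with this trait was not counted. It is at least the 12.4% whose irradiated p38DN arrays all lay above the unirradiated ones. No unirradiated array was well above background for either gene. At both doses Entpd3 on slide 7 and Fap on slides 6 and 7 were below that mark. For Cldn19 the differences were -0.13, 0.94, 1.78, 1.77 and 0.81, higher on 4 of 5 slides. In p38DKI only slide 4 held both doses, with 1 irradiated and 3 unirradiated arrays, and there the differences were 2.78 for Entpd3, 3.69 for Fap and 3.57 for Cldn19. A fit that takes slide as a fixed block gives the values of slide 4 for p38DKI, with limma adjusted p of 0.0636 for Entpd3, 0.00674 for Fap and 0.0416 for Cldn19. They rest on 1 irradiated array, which for Fap and Cldn19 was the highest of its group, and are given as values only. On slide 2, with 3 irradiated and 1 unirradiated p38WT array, the differences were 2.72, 3.63 and 2.02, each smaller than over all p38WT arrays.

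**Figure D3:**
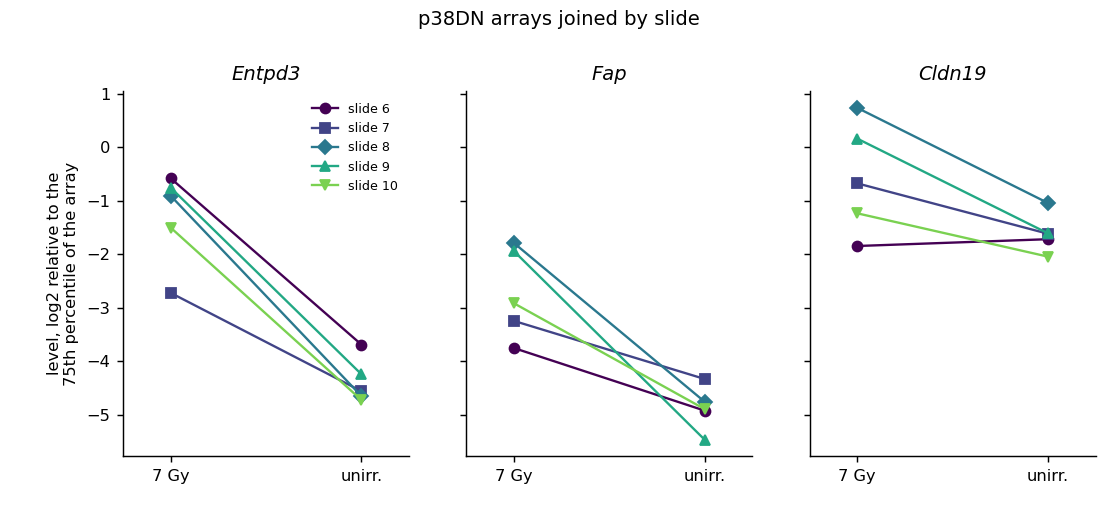
Levels of the 3 genes (log2 relative to the 75th percentile of the array) on p38DN arrays, irradiated (7 Gy) at the left and unirradiated (unirr.) at the right, with lines joining the arrays of 1 slide. Each line of Entpd3 and Fap is higher at the irradiated end, and for Cldn19 the line of slide 6 is not.

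The order of the 6 groups was alike for Entpd3 and Fap at the top and differed for Cldn19. For each gene the irradiated p38WT group was highest. For Entpd3 and Fap, irradiated p38DKI and then irradiated p38DN followed, and the 3 unirradiated groups were lowest. The mean Entpd3 levels of unirradiated p38DKI (-3.11 ± 0.528) and p38WT (-3.20 ± 1.20) differed by less than either SD (n = 5 each), as did those of Fap (-4.68 ± 0.270 and -4.55 ± 0.805). Entpd3 was well above background on 1 of these p38DKI and 3 of these p38WT arrays, and Fap on 0 and 1. Much of this likeness is thus between values below that mark, and it does not show equal expression. For Cldn19 irradiated p38DN (-0.57 ± 1.04) came after irradiated p38WT, followed by irradiated p38DKI (-0.95 ± 0.956), and these means differed by less than either SD. The unirradiated p38DN level of Cldn19 stood 2.06 above that of p38WT, where slide and scan day cannot be told apart from genotype. The unirradiated p38DKI level stood 0.82 above that of p38WT. These differences were not tested, since a gene chosen for its rise in p38WT stands low on unirradiated p38WT arrays by that choice. Of those 5 arrays 3 were well above background for Cldn19.

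Set beside p38WT, and with no test because the p38WT arrays chose the genes, the irradiated p38DKI level differed from p38WT by -1.14 for Entpd3, -0.86 for Fap and -0.88 for Cldn19 (p38DKI minus p38WT, log2). The irradiated p38DN level differed from p38WT by -2.31, -2.20 and -0.50. All 3 irradiated p38DKI means and all 3 irradiated p38DN means were thus below p38WT, where a gene chosen for its large change stands high by that choice. p38DN arrays came from other slides than p38WT arrays.

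Of 35 listed genes of the purinergic system around Entpd3, 28 were measured, of which 7 rose and 3 fell in p38DKI and 10 rose and 2 fell in p38DN, with median log2 changes of 0.48 and 0.85. Over all genes 12.1% rose and 19.3% fell in p38DKI and 17.6% rose and 10.3% fell in p38DN, with medians of -0.25 and 0.01, against which this and the next lists are to be read. P2ry1, a receptor for ADP on platelets, rose by 2.0 in p38DKI (log2, limma adjusted p = 4.26e-05) and by 2.28 in p38DN (adjusted p = 8.89e-06). P2rx1, an ATP-gated channel of platelets, rose by 0.93 (adjusted p = 0.049) and 2.06 (adjusted p = 0.000105). Nt5e, the ecto-nucleotidase that turns AMP into adenosine, rose by 1.62 (adjusted p = 0.0063) and 2.38 (adjusted p = 0.000187). P2ry13, another ADP receptor, rose by 2.10 (adjusted p = 2.84e-05) and 0.87 (adjusted p = 0.0457). P2ry10, a receptor of lymphocytes, fell by 2.26 (adjusted p = 1.04e-05) and 1.69 (adjusted p = 0.000302). Platelet and lymphocyte markers changed on the same arrays, with all 12 B cell markers lower in both genotypes, and their part in these values was not tested. Of the 5 other nucleotidases of the Entpd family that were measured, described after their values were seen, Entpd1 rose in p38DN by 1.48 (adjusted p = 0.00378) and had 0.84 in p38DKI (adjusted p = 0.0855). Entpd5 fell in p38DN by 1.55 (adjusted p = 0.0102) and had -0.29 in p38DKI (adjusted p = 0.631). Entpd6 fell in p38DKI by 0.62 (adjusted p = 0.0212) and had -0.46 in p38DN (adjusted p = 0.0862), and Entpd2 and Entpd4 passed in neither genotype.

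Of 9 listed prolyl peptidases related to Fap, 8 were measured, of which 1 rose and none fell in p38DKI and 3 rose and 1 fell in p38DN, with median log2 changes of 0.13 and 0.59. The count in p38DKI is near the share of all genes. Dpp4, the closest relative of Fap and a surface peptidase of T cells, fell by 1.61 in p38DN (log2, limma adjusted p = 0.000584), and its value in p38DKI was -0.62 (adjusted p = 0.15). The cytosolic peptidases Prep and Prepl had changes of 0.63 (adjusted p = 0.00151) and 0.72 (adjusted p = 0.0208) in p38DN and of 0.29 (adjusted p = 0.115) and 0.62 (adjusted p = 0.0438) in p38DKI. Dpp8 rose in p38DN by 0.71 (adjusted p = 0.00821), with -0.10 in p38DKI (adjusted p = 0.724).

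Among claudins and tight junction genes 19 of 32 were measured, and 5 rose and 2 fell in p38DKI while 7 rose and 3 fell in p38DN. Their median log2 change was 0.79 in p38DKI and 0.10 in p38DN, the p38DN value turning to -0.03 when only probes detected on all arrays set the scale. Jam2, a junctional adhesion molecule, rose by 3.86 (log2, limma adjusted p = 1.11e-05) in p38DKI and 2.77 (adjusted p = 0.000465) in p38DN. F11r, the junctional adhesion molecule of platelets and epithelia, rose by 1.24 (adjusted p = 0.00687) and 1.79 (adjusted p = 0.000262). Cldn15 rose by 2.40 (adjusted p = 0.000607) and 1.38 (adjusted p = 0.035). The scaffold protein gene Tjp1 also rose, by 2.23 in p38DKI (adjusted p = 0.000714) and 1.35 in p38DN (adjusted p = 0.0287).

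The known radiation lists moved on the same arrays. Of 22 measured p53 targets 17 rose and 1 fell in p38DKI and 17 rose in p38DN. The cell cycle inhibitor Cdkn1a rose by 4.14 (log2, limma adjusted p = 8.35e-08) in p38DKI and 4.35 (adjusted p = 5.21e-08). The p53 targets Phlda3 and Ccng1 rose by 3.28 and 2.28 in p38DKI (adjusted p = 1.71e-09 and 6.11e-08) and by 3.88 and 2.90 in p38DN (adjusted p = 1.31e-10 and 1.57e-09). Of 26 interferon-stimulated genes 20 rose and 1 fell in p38DKI and 19 rose and 2 fell in p38DN. Among them Ifit3 rose by 4.78 in p38DKI (adjusted p = 2.14e-11) and 3.50 in p38DN (adjusted p = 6.82e-09). The antiviral enzyme gene Oas2 rose by 3.41 (adjusted p = 5.21e-09) and 4.18 (adjusted p = 2.21e-10).

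The genes whose level followed each of the 3 most closely over all 30 arrays were listed by Pearson's r, as a description, since all change with dose and share arrays. For Entpd3 they were A530064D06Rik (r = 0.96), Il1r2, a decoy receptor for interleukin 1 on neutrophils (0.955), the interferon-stimulated gene Oasl1 (0.949), Dhrs7 (0.948) and Hdc, the enzyme that makes histamine (0.948). For Fap they were the interferon-stimulated gene Ifit3 (0.963), Slfn4 (0.933), Oasl1 (0.929) and Slfn3 (0.927), followed by Akap5 (0.918). For Cldn19 they were Ctnnal1 (0.848), 1700022A21Rik (0.845), BC031181 (0.843), Myct1 (0.829) and Gucy1b1, a subunit of the nitric oxide receptor guanylate cyclase (0.829).

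Differences between arrays of the same group, from which dose and genotype are removed, were set against the lists as a description. On unirradiated arrays many of these values were not well above background, all but 1 for Fap. Deviations of Entpd3 from its group means followed the mean of the neutrophil list with r = 0.818 over 30 arrays, and the next list was the purinergic one at 0.455. The single genes most like Entpd3 by deviation were Cd300lf (0.891), an inhibitory receptor of myeloid cells, Rufy4 (0.868), Mefv (0.866), the pyrin gene of neutrophils and monocytes, Ifnlr1 (0.835) and Pram1 (0.835), an adaptor of granulocytes. Deviations of Fap had no such value, with 0.544 for the Schwann cell and nerve list, 0.452 for T cells, 0.433 for NK cells, 0.392 for the interferon list and 0.294 for stroma. Its most similar single gene was Pigp (0.741). Deviations of Cldn19 had r = 0.553 with platelet markers, 0.452 with endothelium and 0.437 with the interferon list, and its most similar gene was Zfp236 (0.822).

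**Figure D4:**
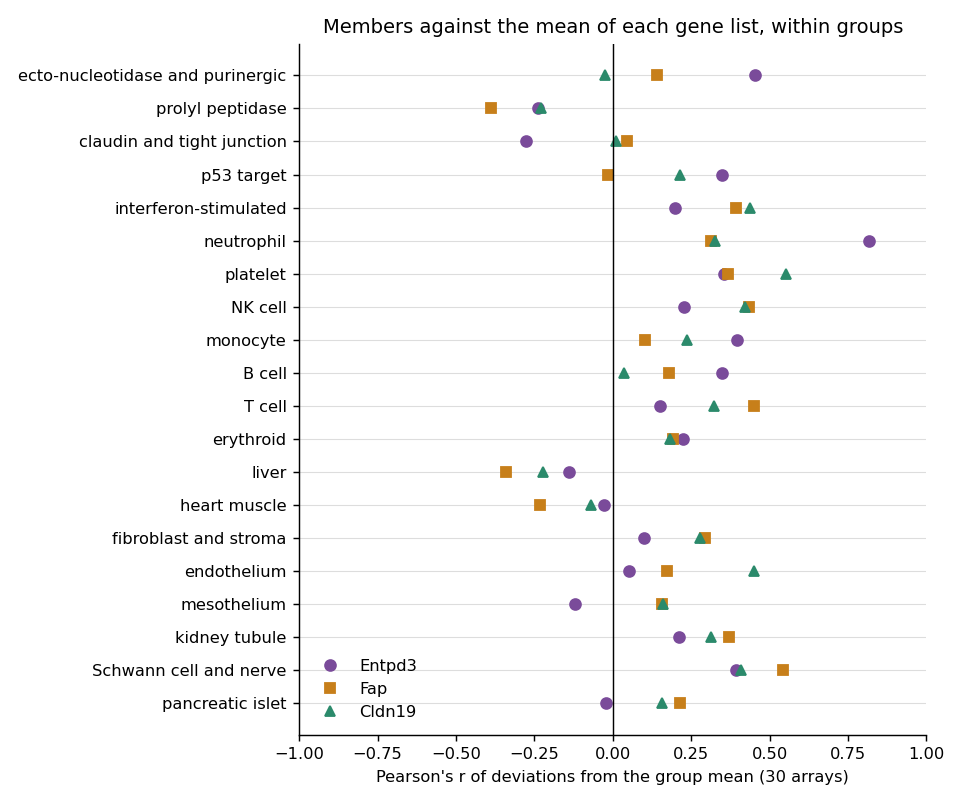
Pearson's r (x axis) between the deviations of each gene and of each list mean (y axis) from the 6 group means over 30 arrays. Entpd3 with the neutrophil list, at 0.818, stands apart from the other points.

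**Figure D5:**
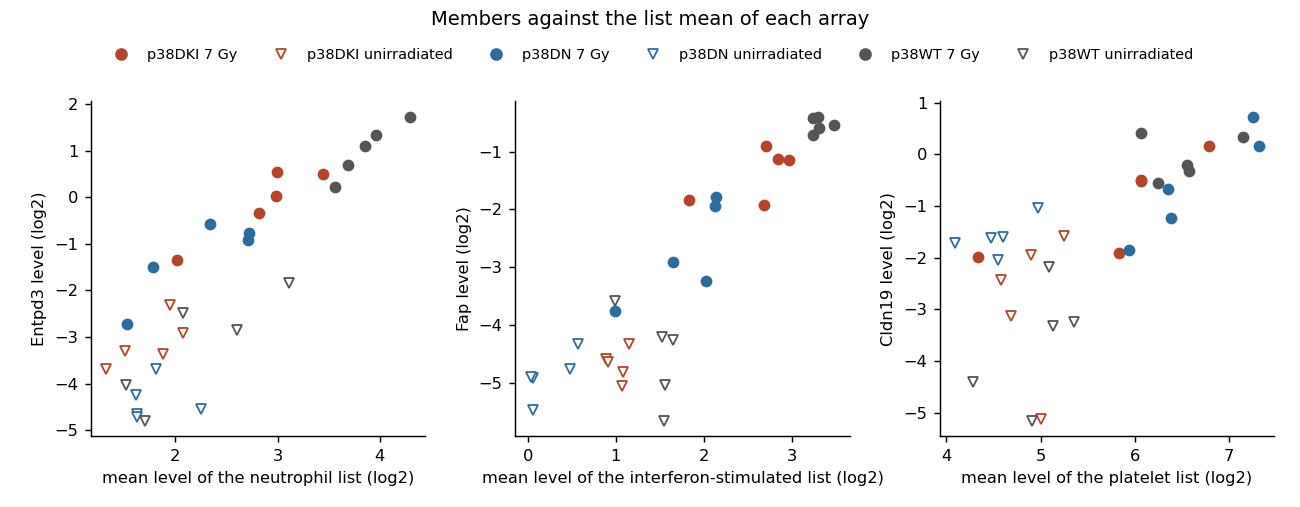
Level of each gene (y axis, log2 relative to the 75th percentile) against the mean level of 1 list (x axis, same scale) on each of the 30 arrays, with Entpd3 set against neutrophil, Fap against interferon-stimulated and Cldn19 against platelet genes. Filled circles are irradiated and open triangles unirradiated arrays, and most irradiated arrays lie toward the upper right of each panel.

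The levels of the 3 genes were correlated over 30 arrays, with r = 0.893 for Entpd3 and Fap, 0.631 for Entpd3 and Cldn19 and 0.687 for Fap and Cldn19, which dose alone can give. Over the 15 irradiated arrays alone r was 0.775, 0.258 and 0.548 for the same pairs, with genotype still in it. Deviations from the group means had r = 0.059, 0.332 and 0.317, values that include unirradiated arrays not well above background.

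Of the genes beside Fap on chromosome 2, Ifih1 rose in both p38DKI and p38DN and Gca in p38DKI alone. Over all genes 12.1% were called higher in p38DKI and 17.6% in p38DN, against which the neighbours of the 3 genes are to be read. In the order of the RefSeq gene table Ifih1, an interferon-induced sensor of viral RNA, is the next gene to Fap, and it rose by 2.32 in p38DKI (log2, limma adjusted p = 7.49e-11) and 1.90 in p38DN (adjusted p = 4.44e-09). Gca, a calcium-binding protein of granulocytes which lies further along on that side, rose by 0.92 in p38DKI (adjusted p = 0.0375) and had 0.03 in p38DN (adjusted p = 0.965). On the other side lie Dpp4, described above, and Gcg, the glucagon gene, which did not pass the filter on dim probes. None of the 3 measured neighbours of Entpd3 was called higher. Eif1b had -0.09 in p38DKI (adjusted p = 0.732) and 0.38 in p38DN (adjusted p = 0.137). Rpl14 fell in p38DKI by 0.79 (adjusted p = 0.00154), with -0.15 in p38DN (adjusted p = 0.572), and 5830454E08Rik fell by 0.73 (adjusted p = 0.000491) and 0.62 (adjusted p = 0.00219). Of the 5 measured neighbours of Cldn19, Ybx1 rose in p38DN by 1.26 (adjusted p = 0.000982) with 0.53 in p38DKI (adjusted p = 0.136), and AU022252, P3h1, Ppih and Ccdc30 passed in neither genotype.

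The background correction bears on all 3 dim genes. Adding an offset of 50, which is of the size of the intensities measured here, shrinks changes of dim genes, and no other offset was run. After normexp correction with this offset, none of the 3 genes passed the threshold in p38DKI or p38DN. The changes were then 0.75 for Entpd3, 0.27 for Fap and 0.31 for Cldn19 in p38DKI (log2, limma adjusted p = 0.0666, 0.392 and 0.31), and 0.32 for Entpd3 and 0.04 for Fap in p38DN (adjusted p = 0.845 and 0.992).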

How the data were processed

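RNA of 30 blood samples was hybridised to Agilent one-colour (Cy3) arrays and read with Agilent Feature Extraction 12.0.2, per the submitters' processing notes. The authors' scanner files hold a processed intensity per spot (44397 spots, of which 43020 are not controls). The deposited log2 values of 18417 probes served as an alternative. Intensities became log2 values without spots that the software called non-uniform or population outliers, and each array was set relative to its 75th percentile. Probes well above background on at least 4 of 5 arrays of a group, with values on at least 20 arrays, were kept (23608), and the brightest stood for its gene (18718 genes). Names came from RefSeq accession (29056 probes), symbol (3150) or synonym (116), otherwise from the files (7107). Group means were fitted with limma 3.58.1 in R 4.3.3 (24 residual degrees of freedom), with Benjamini-Hochberg adjustment over all genes and a threshold of 0.05. All 6 groups were in the same fit, so the p38WT arrays also enter the spread behind the tests in p38DKI and p38DN. Bounds raise each dim level to the lowest well detected probe of its array. The test was checked on simulated data. P-values measure the spread between these samples. The number of arrays limits precision. The 3 genes, the gene lists, the neighbours and the likeness rule (the 5 highest r, and the 3 smallest p per list and genotype) were chosen with earlier results of these data known. Figures used Python 3.11.15 with matplotlib 3.10.9. Some genes of the lists that the naming rule picked are not reported here.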

Additional observations from a re-analysis of the deposited data

How the results depend on the processing

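Apart from leaving out single arrays, 20 alternatives were run. The option of each further probe of a gene could not be run, because every gene had 1. Fap kept its rise in p38DKI in 19 of 20 and in p38DN in 18, Entpd3 in 18 of 20 in both, and Cldn19 in p38DKI in 15 of 20. The exceptions were as follows, as log2 changes with limma adjusted p. Normexp correction gave in p38DKI 0.75 (0.0666) for Entpd3, 0.27 (0.392) for Fap and 0.31 (0.31) for Cldn19, and in p38DN 0.32 (0.845) for Entpd3 and 0.042 (0.992) for Fap. Its offset shrinks changes of dim signals, and no other offset was run. Slide as a fixed block gave Entpd3 2.78 (0.0636) in p38DKI, where 1 slide with 1 irradiated array holds both doses, so the value decides nothing. Cldn19 in p38DKI had 1.89 (0.061) in a fit of only the groups compared, 1.07 (0.4) with stroma, 1.14 (0.209) with neutrophil and 0.96 (0.165) with platelet markers as a covariate. The platelet covariate, chosen like the neutrophil one after seeing the data, also gave 1.97 (0.0537) for Entpd3, 1.33 (0.0692) for Fap and -1.09 for Cldn19 in p38DN. The cause was not tested for normexp correction, the covariates and the smaller fit.

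The uncalled p38DKI minus p38DN difference of Entpd3 (-0.08) turned to 0.32 with array medians, 0.45 without scaling, 0.27 with quantile normalization, 0.43 with normexp, 0.38 with the deposited log2 values, 0.11 without the arrays high in liver markers, 0.16 with liver and 0.53 with platelet markers as a covariate. Leaving out single arrays moved it between -0.44 and 0.22. Over the same omissions Cldn19 in p38DKI ranged from 1.32 to 2.21, and the genes called for the difference from 51 to 679.

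Genes called numbered 5866 in p38DKI, 5228 in p38DN and 174 for their difference. In p38DKI they became 1374 with normexp, 680 with slide as a fixed block and 2182 with the stroma covariate. In p38DN they became 430 with normexp and 3371 without scaling. For the difference they became 43 with array medians, 22 without scaling, 370 with quantile normalization, 1 with normexp, 76 with the deposited values, 52 with no filter, 0 with slide as a fixed block in limma (989 at an unadjusted p under 0.05), 26 with only the groups compared, 32 without the liver-high arrays, 40 with liver, 1.2e+02 with stroma and 2079 with neutrophil markers as a covariate. Scaling moved the split of higher against lower calls in p38DKI, 2261 against 3605 here, to 3791 against 1279 with array medians, 3819 against 759 without scaling and 2914 against 2221 with the deposited values. In p38DN it was 3291 against 1937, and 2691 against 2813 when probes detected on all arrays set the scale or 2301 against 2547 with the deposited values.

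The replicate number marks a shared slide in p38DN, where deviations of same-numbered arrays correlated between -0.15 and 0.41, and no shared slide in the other genotypes, and the labels state no pairing. With the replicate block no call of the 3 genes changed. The block gives each replicate number an offset shared by all 6 groups, so it does not pair the doses within a genotype. With it the log2 changes (limma adjusted p) of Entpd3, Fap and Cldn19 were 2.99 (0.000109), 3.29 (6.74e-07) and 1.89 (0.00859) in p38DKI. In p38DN they were 3.07 (6.92e-05), 2.14 (8.76e-05) and 1.03 (0.146). Genes called numbered 5774 in p38DKI, 5276 in p38DN and 165 for their difference.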
